A study of Mus musculus with 14 samples.

Results

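The immediate early genes described here are Fos, Fosb, Jun, Junb, Egr1, Egr2, Atf3, Ier2, Dusp1 and Ccn1, taken as every probe set annotated to 1 of these 10 symbols. They are 10 of the 18193 genes named on the array, and 15 of its 45037 probe sets that are not controls carry them. Jun and Egr2 have more than 1 probe set, and Ccn1 has 4. Where a gene is given 1 value, it is that of its probe set with the highest mean over all arrays.

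RNA was measured on 14 Affymetrix Mouse Genome 430 2.0 arrays, 1 array per sample. The 4 groups were brain of PWS-IC del mice (3 arrays), brain of wild-type mice (4 arrays), vastus lateralis muscle of PWS-IC del mice (3 arrays) and vastus lateralis muscle of wild-type mice (4 arrays). PWS-IC del mice carry a deletion of the imprinting center of the Prader-Willi domain, the element that controls which parental copy of these genes is expressed. All mice came from an F1 cross of FVB with B6, the wild-type mice were littermates of the same age as the mutants, the brain sample was the whole brain, and the vastus lateralis is a part of the quadriceps. The sources used here do not give age, sex, the parent that passed on the deletion, or handling before the tissue was taken. The titles call the samples biological replicas and do not say whether a brain and a muscle sample with the same number came from 1 mouse.

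Immediate early genes are transcribed within minutes of a stimulus, with no need for new protein synthesis, because the factors that switch them on (SRF with its ternary complex partners, and CREB) already sit at their promoters and are activated by MAP kinases, calcium and cyclic AMP. Most encode transcription factors that start a later wave of expression, and some encode brakes on the same signals. In brain they are widely used as markers of recent neuronal activity, and in muscle they respond to contraction, stretch and injury. Their RNAs are short-lived, so a level reads the recent state of the animal and of the tissue at sampling.

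Promoter sequence is shown for 5 members as background, and its motifs were not tested against the levels or the covariation given below. RefSeq windows on assembly GRCm38.p6, from 250 bases before to 50 bases after each start, were matched for 8 of the 10 members, all but Ier2 and Egr1, and Egr2 had 5 windows. The 250 bases before the start are printed, 5′ to 3′ on the gene's strand. Capitals mark the cAMP response element half-site TGACG, read on either strand and so also seen as CGTCA, and the CArG box, the site known for SRF. Where the full cAMP response element TGACGTCA occurs, it is made of overlapping half-sites and is in capitals throughout.
Dusp1 promoter, chr17:26508473-26508722, minus strand: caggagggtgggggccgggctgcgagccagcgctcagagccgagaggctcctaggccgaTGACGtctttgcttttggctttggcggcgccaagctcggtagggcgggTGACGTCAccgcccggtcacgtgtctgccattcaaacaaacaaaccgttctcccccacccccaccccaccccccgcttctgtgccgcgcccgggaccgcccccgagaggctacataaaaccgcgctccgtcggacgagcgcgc
Ccn1 promoter, chr3:145649986-145650235, minus strand: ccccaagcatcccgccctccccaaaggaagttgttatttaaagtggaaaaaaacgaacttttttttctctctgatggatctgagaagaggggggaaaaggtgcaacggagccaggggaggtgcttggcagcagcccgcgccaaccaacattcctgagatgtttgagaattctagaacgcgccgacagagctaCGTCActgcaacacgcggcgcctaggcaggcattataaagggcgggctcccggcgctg
Fos promoter, chr12:85473640-85473889, plus strand: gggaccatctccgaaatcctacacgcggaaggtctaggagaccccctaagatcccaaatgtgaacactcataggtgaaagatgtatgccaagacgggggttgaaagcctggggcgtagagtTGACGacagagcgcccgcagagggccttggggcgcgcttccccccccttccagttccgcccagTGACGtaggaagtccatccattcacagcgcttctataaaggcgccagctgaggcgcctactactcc
Egr2 promoter, chr10:67537619-67537868, plus strand: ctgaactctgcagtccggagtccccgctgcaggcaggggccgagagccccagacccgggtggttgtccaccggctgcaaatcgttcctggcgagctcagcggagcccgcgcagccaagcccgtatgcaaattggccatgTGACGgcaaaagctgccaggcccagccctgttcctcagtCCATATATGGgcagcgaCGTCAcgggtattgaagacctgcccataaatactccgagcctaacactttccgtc
Jun promoter, chr4:95052223-95052472, minus strand: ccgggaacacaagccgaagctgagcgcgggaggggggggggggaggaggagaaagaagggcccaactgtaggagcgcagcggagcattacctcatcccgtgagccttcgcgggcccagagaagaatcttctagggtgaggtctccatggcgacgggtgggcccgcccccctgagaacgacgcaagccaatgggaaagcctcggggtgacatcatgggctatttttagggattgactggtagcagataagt

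The half-site TGACG, the letters known for CREB and ATF factors, occurred in windows of 7 of the 8 members, all but Jun, and in 20.8% of all 32851 windows of the same length. In Dusp1 it lay at bases -191 to -187 before the start and again inside a full TGACGTCA at -143 to -136. That motif was held by 1.79% of all windows and by no other member with a window. Fos had half-sites at -129 to -125 and -66 to -62, and Ccn1 had 1 at -58 to -54. Among the members with a window, the CArG box was found in Egr2 only, at -72 to -63 of the window printed, against 1.63% of all windows. The CArG box known from Fos lies farther upstream than this window. The AP-1 site TGANTCA occurred in windows of 0 members, against 7.81% of all windows, and the EGR site GCGNGGGCG occurred in Fosb, against 5.55%. All motifs were searched on both strands and by these letters only, so near matches were not counted. The Jun sequence printed above holds such a near match to the full element, tgacatca. A match is a run of letters and no measurement of binding, and Egr2 had more windows in which to match.

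Levels below are log2(intensity + 16), a scale on which a unit is a doubling of a bright signal and which understates the change of a dim one. Median intensity lay between 142.0 and 170.1 on the brain arrays and between 88.7 and 96.4 on the muscle arrays, and arrays of 1 tissue correlated at 0.952 to 0.992 in brain and 0.981 to 0.991 in muscle. The tissue labels held: summed intensity of 5 neuron markers was 39908 to 45814 on brain arrays and 174 to 1427 on muscle arrays, and that of 6 skeletal muscle markers was 663 to 7863 on brain arrays and 89713 to 95102 on muscle arrays. Some brain arrays stood apart in other markers. PWS-IC del brain 2 summed to 129226 over 5 cerebellum markers, against 5420 to 15534 on the other brain arrays. Wild-type brains 1 and 3 summed to 7863 and 4982 over the skeletal muscle markers, against 663 to 1021 on the other brain arrays, and wild-type brain 3 summed to 4513 over 4 pituitary markers, against 260 to 420. Wild-type brains 1 and 2 summed to 4132 and 4301 over 5 choroid plexus markers, against 8865 to 16198 on the other brain arrays. They were also the highest over striatum markers, at 21589 and 15680, against 5918 to 13289. In bulk tissue, fewer cells of a type and less RNA per cell cannot be told apart.

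**Figure D1:**
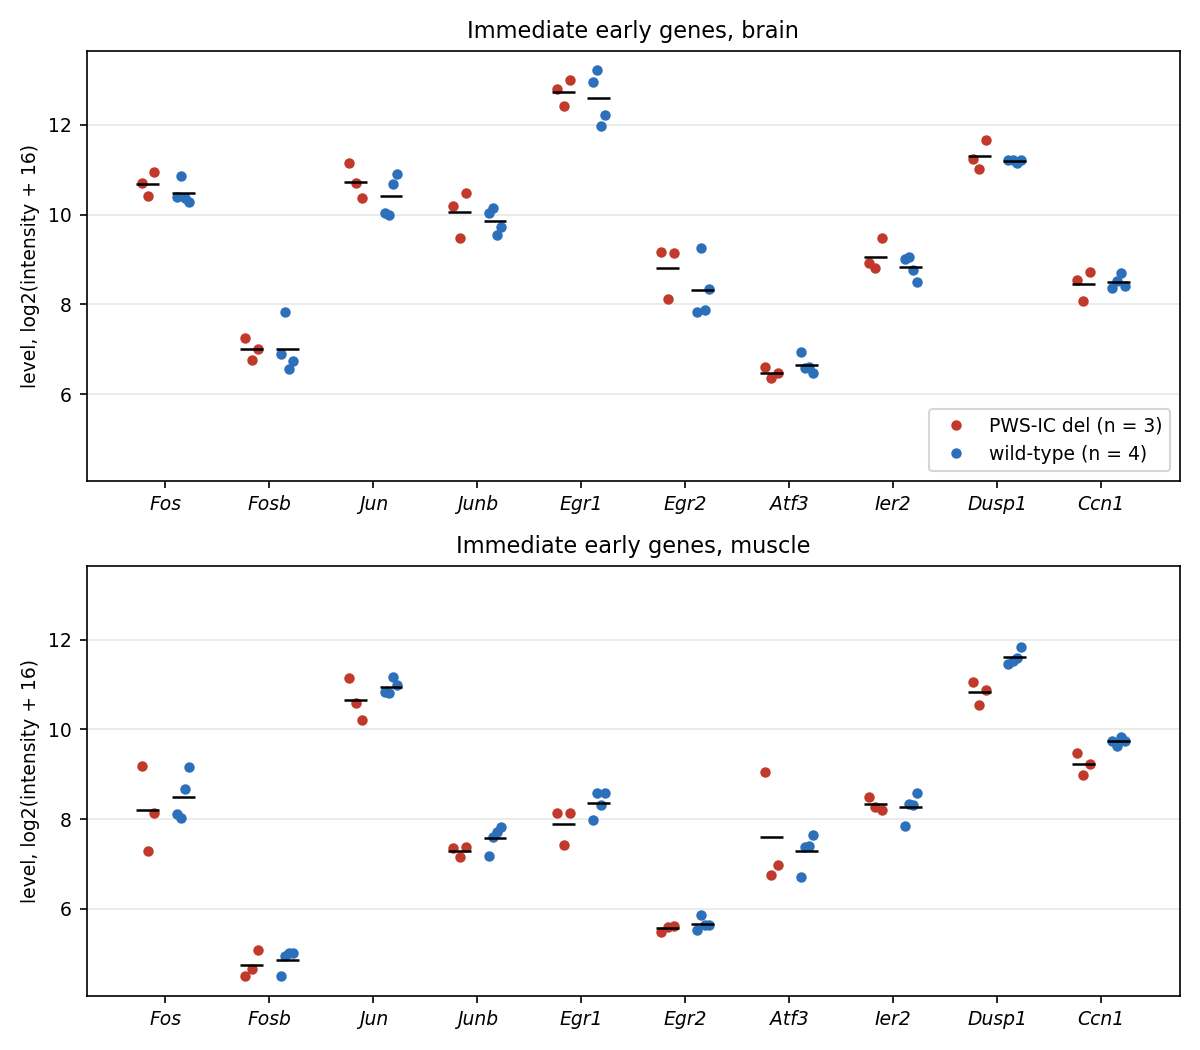
Level of each immediate early gene, log2(intensity + 16), in brain (top) and vastus lateralis (bottom). Each point is 1 array, PWS-IC del (red, n = 3) left of wild-type (blue, n = 4), and the line is the group mean. Muscle Dusp1 and Ccn1 are the genes whose red and blue points do not overlap.

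In brain no immediate early gene differed between PWS-IC del and wild-type mice beyond the spread between arrays. None of the 9 tested members passed limma's test at an adjusted p of 0.05, where 0.066% of the 13644 genes tested did, and 0 had an unadjusted p under 0.05, against 8.2% of all genes. Their differences, PWS-IC del minus wild-type, ran between -0.05 for Ccn1 and 0.48 for Egr2, and 7 of the 9 were above 0, as were 61.9% of all genes tested. The members' median difference was 0.18 and that of all genes 0.06. In 0 of the 9 did the groups separate, against 8.66% of all genes.

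Fos, the AP-1 subunit that pairs with Jun proteins and the usual marker of activated neurons, measured 10.70, 10.41 and 10.95 in PWS-IC del brains, against 10.40, 10.86, 10.38 and 10.29 in wild-type brains. The groups overlapped, with PWS-IC del brain 3 and wild-type brain 2 highest. The difference was 0.20 ± 0.17 (SE, adjusted p = 0.640 by limma), and with arrays left out in turn it ranged from 0.0730 without PWS-IC del brain 3 to 0.34 without PWS-IC del brain 2. Fosb, a relative that shares Fos's partners, measured 7.24, 6.77 and 7.002 in PWS-IC del brains, against 6.89, 7.83, 6.57 and 6.74 in wild-type brains, and wild-type brain 2 was the highest. Its difference was -0.00486 ± 0.28 (adjusted p = 0.996).

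Jun, the AP-1 subunit that also binds DNA as a pair with itself, measured 11.14, 10.70 and 10.36 in PWS-IC del brains, against 10.05, 9.998, 10.68 and 10.90 in wild-type brains. Its second probe set kept nearly the same order of arrays, with 10.69, 10.49 and 10.16 in PWS-IC del brains, against 9.66, 9.79, 10.31 and 10.51 in wild-type brains. Wild-type brains 1 and 2 were the lowest on both. The differences were 0.33 ± 0.26 for the gene (adjusted p = 0.627) and 0.38 for the second probe set; 0 of the members' 15 probe sets passed in brain, against 0.0622% of all probe sets. With wild-type brains 1 and 2 left out the difference of Jun was -0.06. These arrays also stood apart in choroid plexus and striatum markers, and the part of this in the Jun values was not tested. Junb, an AP-1 subunit that can hold Jun's activity back, measured 10.20, 9.48 and 10.48 in PWS-IC del brains, against 10.04, 10.15, 9.54 and 9.74 in wild-type brains. The groups lay over each other, with a difference of 0.18 ± 0.24 (adjusted p = 0.759).

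Egr1 is a zinc-finger factor whose expression in forebrain neurons tracks ongoing synaptic activity. It measured 12.79, 12.42 and 12.997 in PWS-IC del brains, against 12.96, 13.22, 11.98 and 12.23 in wild-type brains, and the wild-type brains fell on both sides of the mutants. The difference was 0.14 ± 0.30 (adjusted p = 0.853). Egr2, its relative with a known part in Schwann cell myelination and hindbrain patterning, measured 9.16, 8.12 and 9.14 in PWS-IC del brains, against 7.84, 9.26, 7.87 and 8.35 in wild-type brains. Of the tested members it varied most within genotypes, with 3 brains (PWS-IC del 1 and 3, wild-type 2) at 9.14 to 9.26 and the other 4 at 8.35 or lower. A second Egr2 probe set had the same 3 brains on top, with 8.48, 7.30 and 8.49 in PWS-IC del brains, against 7.13, 8.39, 7.04 and 7.59 in wild-type brains. The gene's difference was 0.48 ± 0.38 (adjusted p = 0.625).

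Dusp1, a phosphatase that switches MAP kinases off and so limits the signal that induces it, measured 11.24, 11.02 and 11.67 in PWS-IC del brains, against 11.23, 11.22, 11.16 and 11.21 in wild-type brains. The SD was 0.33 in PWS-IC del brains (n = 3), which fell on both sides of wild-type, and 0.03 in wild-type brains (n = 4). The difference was 0.11 ± 0.15 (adjusted p = 0.771). Ccn1, a secreted matrix protein that binds integrins, measured 8.54, 8.08 and 8.72 in PWS-IC del brains, against 8.36, 8.53, 8.69 and 8.42 in wild-type brains, a difference of -0.05 ± 0.16 (adjusted p = 0.905). Its other 3 probe sets differed by 0.08, 0.03 and 0.36, also within the spread. Ier2, a small nuclear protein, measured 8.91, 8.80 and 9.47 in PWS-IC del brains, against 9.01, 9.05, 8.77 and 8.50 in wild-type brains, a difference of 0.23 ± 0.19 (adjusted p = 0.640). That difference was 0.0238 without PWS-IC del brain 3 and 0.36 without PWS-IC del brain 2. Atf3, a stress-induced member of the ATF and CREB family, was dim in brain, below the filter on low values, at 6.35 to 6.60 in PWS-IC del brains and 6.47 to 6.93 in wild-type brains.

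The cerebellum-rich array, PWS-IC del brain 2, was the lowest of the mutant brains for 8 of the 9 tested members, all but Jun. Without it, the differences of the 9 tested members lay between 0.11 for Fosb and 0.82 for Egr2, all above 0, and all had an adjusted p of 0.915 or more. Ccn1 then measured 0.13 and Junb 0.47.

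In vastus lateralis most members lay below wild-type, and the 2 that did not overlap between genotypes were the signalling brake Dusp1 and the matrix protein Ccn1, both lower in PWS-IC del muscle. None of the 8 tested members passed limma's test at an adjusted p of 0.05, where 0.117% of the 13644 genes tested did, and Dusp1 and Ccn1 had an unadjusted p under 0.05, against 11.9% of all genes. Groups that did not overlap were seen in 2 of the 8 members, both with the mutants lower, and in 12.2% of all genes, 5.86% with the mutants lower. Differences were below 0 in 6 of the 8, against 45.9% of all genes, with a median of -0.30 for the members and 0.02 for all genes.

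Dusp1 had intensities of 2121, 1483 and 1873 in PWS-IC del muscle, against 2815, 2949, 3063 and 3647 in wild-type muscle. On the log2 scale these were 11.06, 10.55 and 10.88 in PWS-IC del muscle, against 11.47, 11.53, 11.59 and 11.84 in wild-type muscle. Every mutant muscle lay under every wild-type muscle. The means were 10.83 ± 0.26 in PWS-IC del muscle and 11.61 ± 0.16 in wild-type muscle (SD, n = 3 and 4), a difference of -0.78 ± 0.14 (SE), with a 95% confidence interval of -1.09 to -0.46. Its adjusted p was 0.0899, and it stood at place 63 of the 13644 genes in order of p. The call depended on the fit: the adjusted p was 0.0442 with an intensity trend in limma's prior and 0.0485 in a joint fit of all 14 arrays. With the replicate number as a block, which in effect leaves out wild-type muscle 4 because no mutant shares its number, the difference was -0.70 and the adjusted p 0.285. With each array left out in turn the difference stayed between -0.89 and -0.63, with adjusted p between 0.0977 and 0.229.

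Ccn1 was read by 4 probe sets, and on each of them every PWS-IC del muscle lay below every wild-type muscle. On the first, levels were 9.46, 8.98 and 9.23 in PWS-IC del muscle, against 9.75, 9.62, 9.84 and 9.75 in wild-type muscle. The second gave 8.99, 8.54 and 8.58 in PWS-IC del muscle, against 9.29, 9.15, 9.48 and 9.48 in wild-type muscle. For the other two, levels were 7.59 to 7.83 and 7.68 to 7.79 in PWS-IC del muscle, against 7.97 to 8.08 and 7.99 to 8.20 in wild-type muscle. The probe sets read 1 RNA in the same samples, so they are repeats of a measurement and not of the mice, and 6.06% of all probe sets separated in this direction. None of the members' 15 probe sets passed in muscle, against 0.0644% of all. The 4 differences were -0.51, -0.65, -0.29 and -0.38, with adjusted p over all probe sets between 0.199 and 0.362. For the gene the difference was -0.51 ± 0.12 (SE, adjusted p = 0.172 by limma), with a range of -0.63 to -0.39 when each array was left out in turn.

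**Figure D2:**
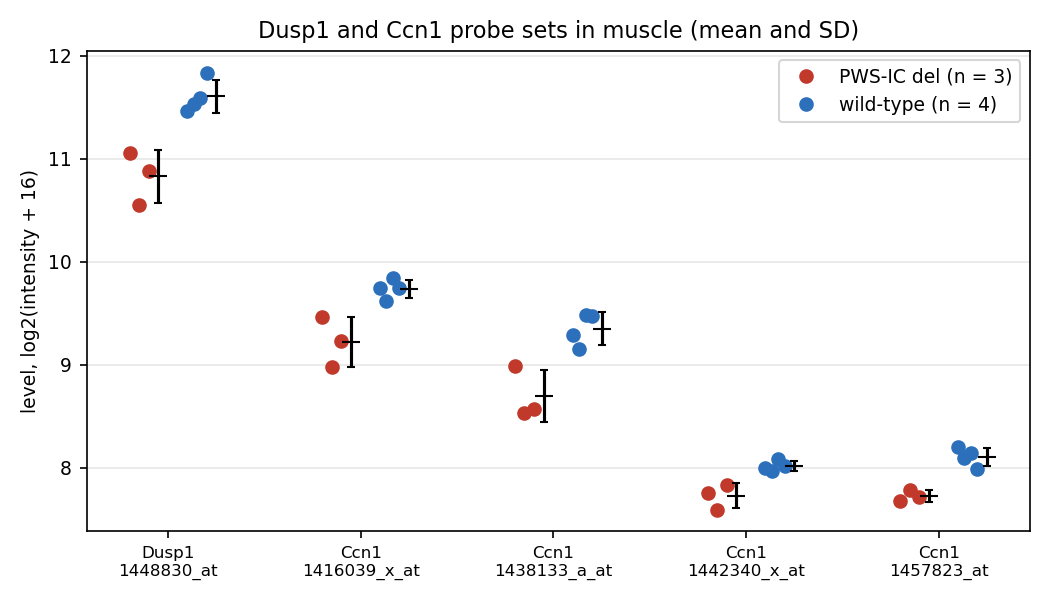
Levels of the Dusp1 probe set and the 4 Ccn1 probe sets in vastus lateralis, log2(intensity + 16). Points are arrays, PWS-IC del (red, n = 3) left of wild-type (blue, n = 4), and bars are mean and SD; on all 5 probe sets every PWS-IC del point is below every wild-type point.

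Markers of vessel cells were lower in the same mutant muscles. All 5 markers of pericytes and smooth muscle were lower in PWS-IC del muscle, with a median difference of -0.51, and 3 of them did not overlap, against 5.86% of all genes lower without overlap. Acta2, the actin of smooth muscle, differed by -0.56 (adjusted p = 0.0840), Myh11, its myosin, by -0.71 (adjusted p = 0.106) and Rgs5, a pericyte regulator of G proteins, by -0.51 (adjusted p = 0.118). Acta2 passed after quantile normalization (adjusted p = 0.0326), with an intensity trend (0.0419), with array quality weights (0.00675) and in the joint fit (0.0497), and Rgs5 passed with the trend (0.0485) and the weights (0.0188). Under the weights 1861 of the 13644 genes passed, against 16 in the main fit. The summed intensity of the 5 markers was 7013 to 8121 in PWS-IC del muscle, against 9854 to 11969 in wild-type muscle. All 8 endothelial markers were lower as well, with a median of -0.38 and 4 that did not overlap (5.86% of all genes), at summed intensities of 2516 to 3619 in PWS-IC del muscle, against 3470 to 4621 in wild-type muscle. Within a genotype the order of arrays rests on 3 or 4 values. PWS-IC del muscle 2 was the lowest mutant for Dusp1 and Ccn1, and PWS-IC del muscle 3 for both vessel lists (7013 and 2516). Wild-type muscle 4 was highest for Dusp1 and the lowest wild-type muscle for both lists (9854 and 3470). Wild-type muscle 3 was highest for Ccn1 and hardly differed from wild-type muscle 4 over the pericyte and smooth muscle markers (9897). The same lists were lower in PWS-IC del brain too, where Dusp1 and Ccn1 differed by 0.11 and -0.05. There 7 of 7 tested endothelial markers and 5 of 5 markers of pericytes and smooth muscle were below 0, each list with a median of -0.26 and 2 genes that did not overlap, against 2.87% of all genes. The summed intensities in brain were 1680 to 1946 for PWS-IC del, against 1822 to 2823 for wild-type, over the endothelial markers, and 3182 to 3305 for PWS-IC del, against 3511 to 5234 for wild-type, over the others. In muscle, of 6 macrophage markers, 5 were above 0, with a median of 0.42, as were 54.1% of all genes. None of them passed, and Csf1r (0.00389) and Adgre1 (-0.00988) hardly differed. All 5 fibroblast markers were above 0 as well, with a median of 0.31 and overlapping groups. The part of these cell types in the Dusp1 and Ccn1 values was not tested.

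The other members showed no separation in muscle. Fos measured 9.18, 7.29 and 8.13 in PWS-IC del muscle, against 8.12, 8.03, 8.67 and 9.15 in wild-type muscle, so the mutants held both the highest and the lowest array. Its difference was -0.29 ± 0.43 (adjusted p = 0.818), and 0.16 with PWS-IC del muscle 2 left out. Atf3 measured 9.05, 6.76 and 6.97 in PWS-IC del muscle, against 6.72, 7.39, 7.41 and 7.65 in wild-type muscle. PWS-IC del muscle 1 carried that group's mean: the difference was 0.30 ± 0.51 (adjusted p = 0.846) with it and -0.43 without it.

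Egr1 measured 8.14, 7.42 and 8.13 in PWS-IC del muscle, against 7.99, 8.59, 8.31 and 8.57 in wild-type muscle, a difference of -0.47 ± 0.21 (adjusted p = 0.432), and -0.23 without PWS-IC del muscle 2. Junb measured 7.36, 7.17 and 7.37 in PWS-IC del muscle, against 7.17, 7.60, 7.70 and 7.82 in wild-type muscle, a difference of -0.27 ± 0.15 (adjusted p = 0.512). Wild-type muscle 1 was among the lowest arrays for both genes and kept the groups overlapping. Jun measured 11.14, 10.60 and 10.21 in PWS-IC del muscle, against 10.83, 10.81, 11.18 and 10.996 in wild-type muscle, a difference of -0.30 ± 0.20 (adjusted p = 0.586). It was -0.0833 without PWS-IC del muscle 3 and -0.55 without PWS-IC del muscle 1. Ier2 measured 8.50, 8.28 and 8.21 in PWS-IC del muscle, against 7.85, 8.34, 8.31 and 8.58 in wild-type muscle, a difference of 0.06 ± 0.16 (adjusted p = 0.911). Fosb and Egr2 were below the filter on low values in muscle. Fosb lay at 4.50 to 5.08 in PWS-IC del muscle and 4.51 to 5.02 in wild-type muscle, and Egr2 at 5.48 to 5.61 in PWS-IC del muscle and 5.53 to 5.87 in wild-type muscle.

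**Figure D3:**
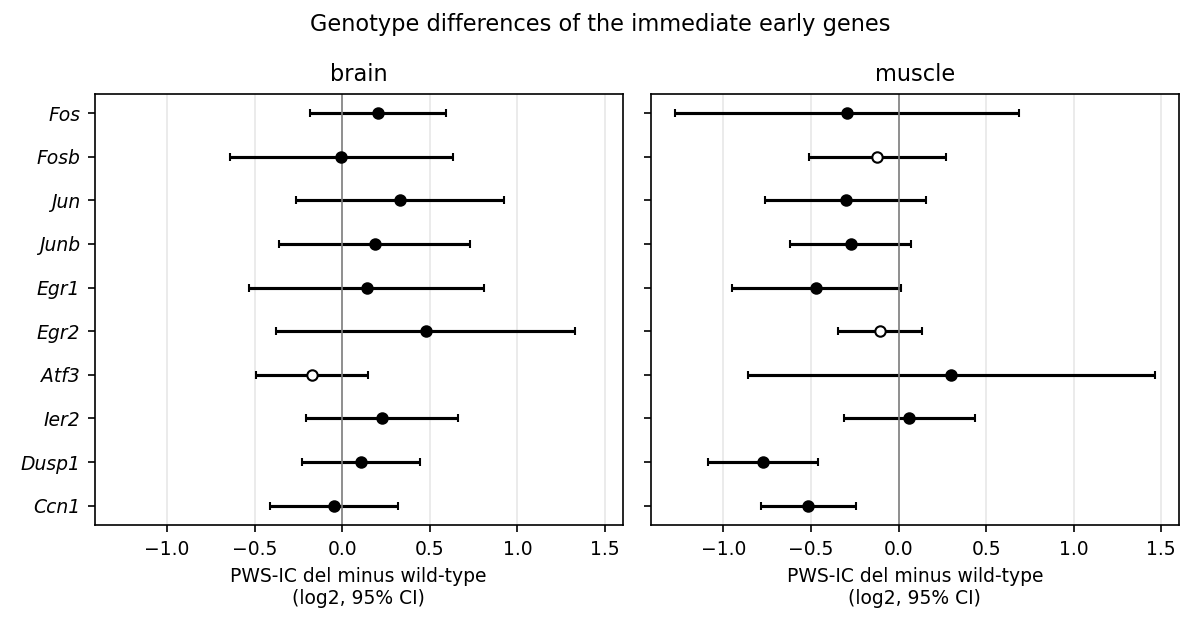
Difference of each member, PWS-IC del minus wild-type, in log2(intensity + 16), with its 95% confidence interval from limma (brain left, muscle right; 3 against 4 arrays each). Open points are members below the filter on low values, read from the fit of all probe sets; the intervals of Dusp1 and Ccn1 in muscle lie below 0.

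The genotype difference was then compared between the tissues, as an interaction over all 14 arrays. The brain difference exceeded the muscle difference by 0.88 ± 0.21 (SE) for Dusp1 (adjusted p = 0.313) and by 0.46 ± 0.21 for Ccn1 (adjusted p = 0.751). None of the 10 members passed, where 0.0803% of the 14951 genes tested did. The genotype differences of these genes are therefore not shown to differ between the tissues.

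Between tissues of wild-type mice the members fell into groups. Brain minus muscle was 4.23 ± 0.26 (SE) for Egr1, 2.29 ± 0.20 for Junb and 1.99 ± 0.33 for Fos, all with adjusted p of 6.46e-05 or less. Egr2 and Fosb were below the filter in muscle, where their intensities lie near the pseudocount of 16, so that their differences of 2.66 ± 0.28 and 2.14 ± 0.24 (adjusted p = 6.12e-07 and 9.03e-07) understate the gap and are not ranked with the others. For Egr1 the means were 12.60 ± 0.59 in wild-type brain and 8.37 ± 0.28 in wild-type muscle (SD, n = 4 each). Ccn1 was lower in brain, with a difference of -1.24 ± 0.14 (adjusted p = 9.59e-07), at 8.50 ± 0.15 in wild-type brain and 9.74 ± 0.09 in wild-type muscle. Dusp1 was also lower in brain, with a difference of -0.40 ± 0.14 (adjusted p = 0.0154). Without wild-type muscle 4 it was -0.33 and did not pass (adjusted p = 0.0547).

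This comparison has a wide background. As deposited, 82.3% of all genes passed, 8898 (59.5%) higher and 3403 (22.8%) lower in brain, and the median gene was higher in brain by 0.52. After quantile normalization the split was 5316 higher and 6893 lower, and the median gene lay at -0.18. Under that scaling and under median centring, which put the median gene at -0.15, the sign of Ier2 turned: it was 0.57 as deposited (adjusted p = 0.00889), -0.26 after quantile normalization and -0.11 after median centring. Atf3 was -0.64 as deposited (adjusted p = 0.127) and passed at -1.34 after quantile normalization and, unscaled, without PWS-IC del muscle 1 (adjusted p = 0.00346). Jun was -0.55 (adjusted p = 0.0454) and did not pass with a pseudocount of 1 (adjusted p = 0.0506) or as the mean of its probe sets (-0.15, adjusted p = 0.523), and without wild-type brain 2 it was -0.41 (adjusted p = 0.139). With single arrays left out, Jun's call was lost in 8 of 14 fits, and that of Dusp1 in 1. Members also moved without turning: after quantile normalization and after median centring, brain minus muscle was -0.85 and -1.08 for Dusp1, -1.16 and -1.22 for Jun, -2.02 and -1.92 for Ccn1, and 1.23 and 1.31 for Fos. No other member changed sign in the alternatives run.

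Set side by side as deposited, the group means of Dusp1 were 11.31 ± 0.33 in PWS-IC del brain and 11.20 ± 0.03 in wild-type brain, and 10.83 ± 0.26 in PWS-IC del muscle and 11.61 ± 0.16 in wild-type muscle (SD, n = 3 and 4). Wild-type muscle was the highest group. The place of PWS-IC del muscle below the brain groups held only on the deposited scale: after median centring the means were 11.02 in PWS-IC del brain and 10.84 in wild-type brain, and 11.18 in PWS-IC del muscle and 11.92 in wild-type muscle. Ccn1 ran in another order, at 8.45 ± 0.33 in PWS-IC del brain and 8.50 ± 0.15 in wild-type brain, and at 9.22 ± 0.24 in PWS-IC del muscle and 9.74 ± 0.09 in wild-type muscle, with both muscle groups above both brain groups, also after quantile normalization and median centring.

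The members were among the more variable genes within a genotype. Their within-genotype SD in brain had a median of 0.39, against 0.17 for all genes tested, and was 0.64 for Egr2, 0.49 for Egr1 and 0.46 for Fosb, at percentiles 98.12, 95.98 and 95.35 of all genes. Dusp1, at 0.21 and percentile 67.0, was the steadiest of the 9 in brain. In muscle the median was 0.29, against 0.14 for all genes, with Atf3 at 0.86 and Fos at 0.72, percentiles 99.1 and 98.9, while Ccn1 was at 0.17 and percentile 65.1. Dusp1, at 0.21, and Ccn1 had the smallest spread of the 8 tested members in muscle.

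High and low arrays recurred across members. In brain, PWS-IC del 3 was the highest array for Fos, Junb, Dusp1, Ccn1 and Ier2, wild-type 2 was the highest for Fosb, Egr1 and Egr2, and PWS-IC del 2 was the lowest for Junb, Dusp1 and Ccn1. The mean deviation of the 9 tested members from their average was 0.22, -0.24 and 0.32 in PWS-IC del brains 1 to 3, against -0.13, 0.24, -0.25 and -0.17 in wild-type brains 1 to 4. Neither genotype held only high or only low arrays. In muscle, PWS-IC del 2 was the lowest array for Fos, Junb, Egr1, Dusp1 and Ccn1, and wild-type 4 was the highest for Junb, Dusp1 and Ier2. The mean deviation of the 8 tested members was 0.32, -0.53 and -0.27 in PWS-IC del muscle, against -0.18, 0.07, 0.21 and 0.38 in wild-type muscle.

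In brain these arrays stood in the same order in markers of forebrain cortex. The summed intensity of 4 such markers was 8777, 7380 and 10782 in PWS-IC del brains, against 8210, 9685, 6758 and 7664 in wild-type brains, and sorting the 7 arrays by it gave the order of the members' mean deviation. A list of other early response effectors, such as Dusp4 and Bdnf, gave the same order. It holds genes of the members' own class and so cannot show whether the match is particular to cortex markers. Its sums were 24220, 20983 and 27492 in PWS-IC del brains, against 23410, 27391, 17750 and 21490 in wild-type brains. Striatum markers did not follow this order, at 9965, 5918 and 10371 in PWS-IC del brains, against 21589, 15680, 6120 and 13289 in wild-type brains. The part of the brain regions sampled in the members' covariation was not tested.

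**Figure D4:**
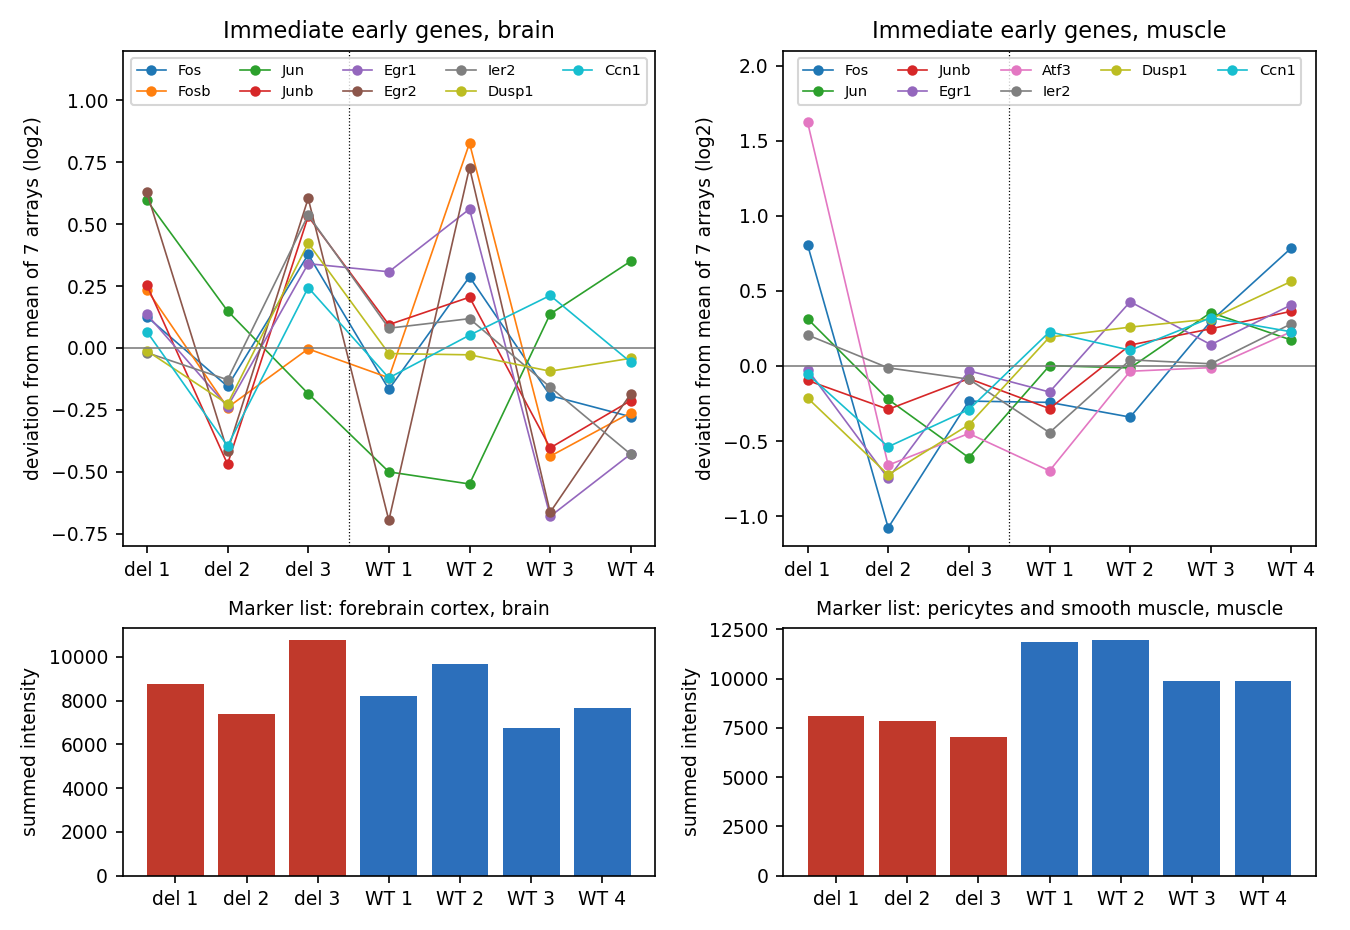
Top, deviation of each tested member from its mean over the 7 arrays of a tissue (log2 units), with lines joining the values of 1 gene and the dotted line parting PWS-IC del from wild-type (WT). Bottom, summed intensity of the forebrain cortex markers in brain and of the pericyte and smooth muscle markers in muscle; cortex markers are highest on brain del 3 (10782), and the muscle bars of all 3 mutants lie below those of wild-type.

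Of the 45 member pairs, 33 had a positive Pearson's r over the 7 brain arrays, with a median r of 0.43. The pairs share arrays and members, so they are not independent of each other. The highest were Fos with Egr2 (r = 0.88), Fos with Ier2 (r = 0.84) and Fos with Junb (r = 0.84). Their exact permutation p were 0.0286, 0.00635 and 0.0280, their p adjusted over the 45 pairs were 0.173, 0.143 and 0.173, and their Spearman's rho were 0.64, 0.89 and 0.71 (exact p = 0.139, 0.0123 and 0.0881). Without the 2 arrays farthest from the Fos median, PWS-IC del 3 and wild-type 2, r was 0.79, 0.57 and 0.67. Junb with Dusp1, named after its value was seen, was the only pair to pass the adjustment for Pearson's r. It had r = 0.82 (exact permutation p = 5.95e-04, adjusted 0.0268) and rho = 0.96 (exact p = 0.00278, adjusted 0.125), and r = 0.77 without PWS-IC del 2 and wild-type 3. With any of 6 of the 7 arrays left out, 0 pairs passed, but 6 arrays have too few orders for 1 pair alone to pass. These counts therefore cannot show whether the pair depends on 1 array.

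In brain the r of Jun was negative with each of the other 8 tested members, with a median of -0.32, while its median r with all tested genes was 0.28. With Egr2 and Ccn1 it was close to none, at -0.00403 and -0.0427. As deviations from genotype means, that of Jun with Ccn1 was 0.00766. The lowest pairs were Jun with Egr1 (r = -0.62, exact permutation p = 0.145), Jun with Ier2 (r = -0.53, exact p = 0.223) and Jun with Atf3 (r = -0.44, exact p = 0.345), and their adjusted p were 0.373, 0.489 and 0.585. Without wild-type brains 1 and 2, where Jun was lowest, these r were -0.16, -0.63 and 0.39. The other 8 tested members had a median r of 0.42 to 0.77 with their fellow members, against -0.16 to 0.05 with all tested genes.

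In muscle 39 of the 45 pairs were positive, with a median r of 0.50, and 0 passed the adjustment (4 had an exact p under 0.05). Among them were Junb with Egr1 (r = 0.83, exact permutation p = 0.0129, adjusted 0.277, rho = 0.86) and Egr1 with Dusp1 (r = 0.83, exact p = 0.0185, adjusted 0.277, rho = 0.79). As deviations from genotype means, the r of these pairs were 0.75 and 0.82. In muscle Jun had a positive r with all 7 of the other tested members, with a median of 0.59, pooled over genotypes. As deviations, its r with them ran from 0.09 with Egr1 to 0.81 with Atf3. Dusp1 and Ccn1 each separate the genotypes, so a pooled r across the 7 muscles cannot be read. Taken as deviations from the genotype means their r was 0.76, and that of Fos with Dusp1, chosen after its value was seen, was 0.96. The lowest pairs, Egr2 with Atf3, Fos with Egr2 and Fosb with Jun, had r of -0.26, -0.26 and -0.25, and each holds a member that was dim in muscle.

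**Figure D5:**
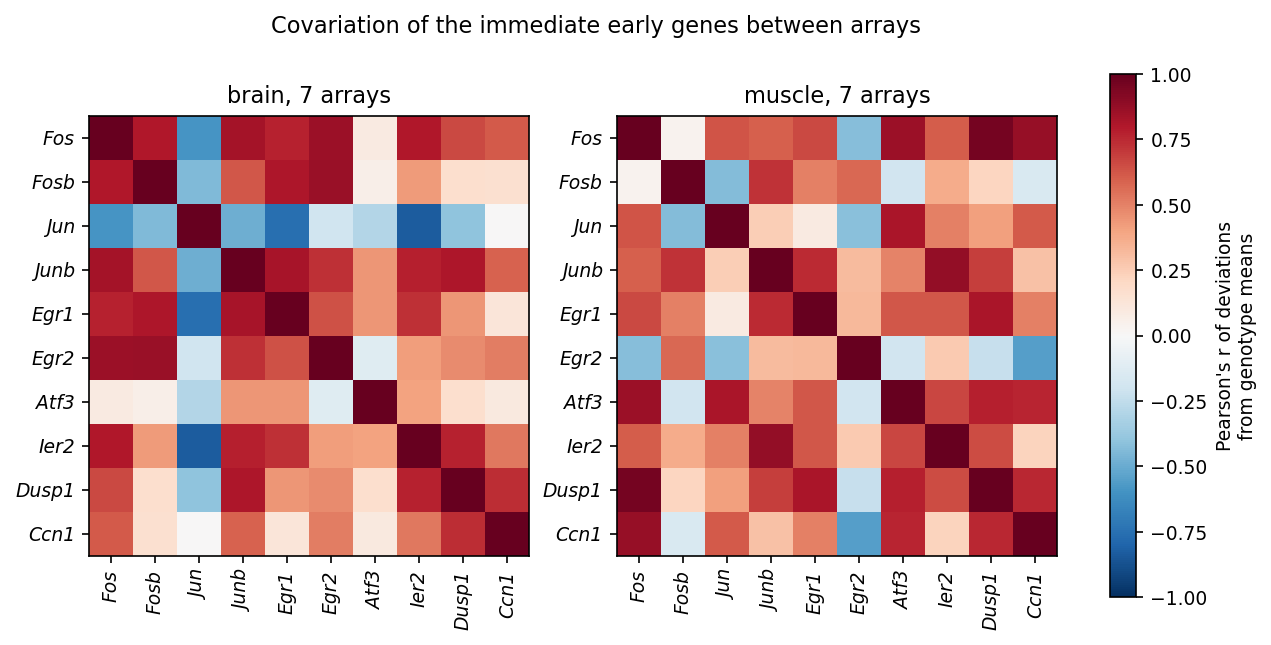
Pearson's r between members over 7 arrays of brain (left) and of muscle (right), each value taken as a deviation from its genotype mean; red is positive and blue negative. In brain the Jun row is mostly blue, whereas in muscle the blue cells lie mainly in the rows of Fosb and Egr2, which were dim there.

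The genes most like the members between arrays were found by the r of their deviations from genotype means with the members' mean deviation, over 7 arrays and as a description. They were picked as the highest r among all genes tested, so values near 1 come in part from that choice. In brain these were Ncald (r = 0.993), Rps2 (0.992), Zfp575 (0.983), Mapk8 (0.981) and Rasgrf2 (0.978), where Ncald is a calcium sensor of neurons, Mapk8 the kinase that phosphorylates Jun, and Rasgrf2 a cortex marker of the list above. In muscle they were Scand1 (0.988), Grrp1 (0.983), Dnajb1 (0.979), Klf2 (0.974) and Slc16a9 (0.963), where Dnajb1 is a heat shock cochaperone and Klf2 a factor induced by flow in endothelium.

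Other early response genes were counted from lists drawn up with earlier results of these data known. None of their genes passed in either tissue. Of 19 other immediate early transcription factors tested in brain, 14 were above 0, with a median of 0.18, and the smallest p belonged to Cebpb, at 8.89 ± 0.12 in PWS-IC del brain and 8.36 ± 0.24 in wild-type brain, a difference of 0.53 (adjusted p = 0.556). Of 26 early response effectors, 18 were above 0, with a median of 0.15. They included the phosphatase Dusp4 (0.61) and the growth factor Bdnf (0.37), both with overlapping groups. All 11 heat shock genes were above 0 in brain, with a median of 0.18, and Hspa1a, an inducible chaperone, differed by 0.69 (adjusted p = 0.556). Differences above 0 were seen in 61.9% of all genes.

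In muscle 11 of 16 such transcription factors were below 0, with a median of -0.07, and so were 15 of 23 effectors, with a median of -0.08. The lists were mixed. Fosl2, an AP-1 subunit of the Fos family, was higher and did not overlap, at 8.53 ± 0.19 in PWS-IC del muscle and 7.99 ± 0.10 in wild-type muscle, a difference of 0.54 (adjusted p = 0.109). Ccn2, the close relative of Ccn1, also lay above wild-type in every mutant, at 9.68 ± 0.28 in PWS-IC del muscle and 8.88 ± 0.35 in wild-type muscle, a difference of 0.80 (adjusted p = 0.206). Per1, a clock gene that CREB induces, lay below, at 8.59 ± 0.25 in PWS-IC del muscle and 9.03 ± 0.05 in wild-type muscle, a difference of -0.45 (adjusted p = 0.213). Hbegf, a growth factor, was lower with no overlap, with a difference of -0.37 (adjusted p = 0.243).

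Upstream of the members, 20 genes of factors and kinases were tested in brain and 19 in muscle, and 11 and 12 of them were above 0. Crem, a CREB relative with isoforms that repress cAMP response elements, was higher with no overlap in both tissues. It measured 8.68 ± 0.08 in PWS-IC del brain and 8.22 ± 0.26 in wild-type brain, a difference of 0.46 (adjusted p = 0.556), and 8.13 ± 0.16 in PWS-IC del muscle and 7.50 ± 0.21 in wild-type muscle, a difference of 0.63 (adjusted p = 0.118). Groups without overlap and with the mutants higher made up 5.78% of all genes in brain and 6.31% in muscle. Srf, the factor that binds the CArG box, differed by 0.17 in brain (adjusted p = 0.658). In muscle it measured 9.34 ± 0.00958 in PWS-IC del mice, against 9.25 ± 0.05 in wild-type mice (SD, n = 3 and 4), with no overlap and a difference of 0.0904 (adjusted p = 0.626).

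Among 8 genes of the integrated stress response, the pathway that induces Atf3, 4 were above 0 in brain and 3 in muscle, and Ddit3, a factor of that pathway, differed by 0.30 in brain and by -0.44 in muscle (adjusted p = 0.556 and 0.296). Of 10 genes that respond to glucocorticoids, hormones that also induce Dusp1, 7 were above 0 in brain and 4 in muscle. In muscle the kinase Sgk1 was lower with no overlap, with a difference of -0.33 (adjusted p = 0.254), and the metal-binding Mt2 higher with no overlap, with a difference of 0.47 (adjusted p = 0.164).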

How the data were processed

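Total RNA of brain and vastus lateralis was labelled with biotin and hybridised to 1-colour arrays, per the labels' protocols. The deposited files give 1 linear intensity per probe set and array, made with PLIER and the Affymetrix Expression Console, per the submitters' processing notes. The sources used here do not give their settings or say how arrays were normalized against each other. None of the values was at or below 0.

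The deposited intensities were taken as log2(intensity + 16) with no further scaling. Of 45037 probe sets that are not controls, 34945 carry 1 gene symbol in the platform annotation, 932 carry several and 9160 are unnamed; only the first kind names a gene. Each gene stood for its probe set with the highest mean over 14 arrays. Genes under the 0.25 quantile of a tissue's means (6.64 in brain, 6.08 in muscle) were not tested, and members below it have their values from the fit of all probe sets.

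Genotypes were compared within each tissue by limma 3.58.1 (lmFit, eBayes; R 4.3.3). Interaction and tissue contrasts used all 14 arrays. P-values are 2-sided and adjusted by Benjamini-Hochberg over all genes of a fit, with a threshold of 0.05. The number of arrays limits the precision, and limma's p-values set a difference against the spread between these samples. Member pairs were tested by exact permutation over the 5040 orders of 7 arrays (Python 3.11.15, scipy 1.17.1). The fits were tested on simulated data.

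Named genes were the members, up to 4 genes of smallest p per list and tissue, the 5 genes most like the members, and the 3 highest and lowest pairs. Members and lists were chosen with earlier results of these data known. Alternatives covered the pseudocount, scaling, filter, probe set choice, intensity trend, array weights, a joint fit, a replicate block and leaving out arrays.

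Promoter sequences are RefSeq's, on GRCm38.p6. The array files name no genome build.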

Additional observations from a re-analysis of the deposited data

Results flagged for a closer look

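One value stood apart within its group of 4 arrays by Dixon's test: Fosb in wild-type muscle 1, at 4.51, where the other 3 wild-type muscles lay between 4.94 and 5.02. Fosb was below the filter on low values in muscle, and 30 groups of 4 arrays were examined, of which about 1 in 20 is marked by chance.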

How the results depend on the processing

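The 9 genes called in brain were 3 with the replicate number as a block and 6 to 7 with arrays left out in turn, and the 28 probe sets were 11 with the block. The 16 genes called in muscle were 29 with a pseudocount of 64, 46 after quantile normalization, 25 after median centring, 8 with no filter, 29 with a filter at the 0.5 quantile, 59 with an intensity trend, 1861 with array quality weights, 39 in the joint fit, 2 with the block, 84 at a threshold of 0.1 and 6 to 26 with arrays left out. Muscle probe sets, 29, were 57 with a pseudocount of 64, 11 with the block and 15 to 22 with arrays left out. Interaction calls, 12, were 6 with a pseudocount of 1 and 7 to 16 with arrays left out. The 1 correlated brain pair became 2 after quantile normalization, 0 after median centring and 0 to 2 with arrays left out. With an array left out there are too few orders for 1 pair alone to pass. Same-numbered arrays of the genotypes correlated at -0.50 to 0.46 in their deviations. Without unlike-numbered arrays beside them, these r cannot decide whether the numbers pair samples. The numbers are not stated to pair mice, so they were not taken to do so.

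Array quality weights moved most. With them 1861 of the 13644 genes tested in muscle passed, against 16 in the main fit, so a call under the weights is common. Among these were Dusp1 (-1.02, adjusted p = 0.00446), Ccn1 (-0.73, 0.00793), Egr1 (-0.87, 0.0217) and Junb (-0.43, 0.0430). In the same fit Atf3 (-0.40), Hspa1b (-0.18) and Ier2 (-0.0131) turned below 0. Brain Ccn1 turned to 0.0252 with median centring and 0.10 as the mean of its probe sets, where the stress gene Sesn2 turned to 0.0190. Brain Fosb turned to 0.00361 with a pseudocount of 1, 0.0829 after quantile normalization, 0.0700 after median centring, 0.0723 with weights and 0.35 without wild-type brains 1 and 2, where Jun turned to -0.0567. Ier2 in brain minus muscle turned to -0.26 after quantile normalization and to -0.11 after median centring, which was chosen for that contrast after seeing the data. The causes were not tested.

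With arrays left out in turn, brain differences ranged from -0.19 to 0.13 for Ccn1, -0.0726 to 0.25 for Dusp1, -0.0672 to 0.35 for Egr1, -0.15 to 0.27 for Fosb, -0.0284 to 0.47 for Junb, 0.30 to 0.82 for Egr2 and 0.12 to 0.51 for Jun, and those of 2 dimmer Ccn1 probe sets from -0.0416 to 0.27 and -0.0535 to 0.0988. Muscle differences ranged from -0.43 to 0.72 for Atf3, -0.78 to 0.16 for Fos, -0.0769 to 0.16 for Ier2, -0.19 to 0.0497 for the dimmer Egr2 probe set and -0.29 to 0.00396 for Fosb. Interactions ranged from -0.89 to 0.25 for Atf3, -0.0305 to 0.39 for Fosb and -0.0383 to 0.30 for Ier2. The r of Egr2 with Atf3 ranged from -0.49 to 0.56, of Fos with Egr2 from -0.45 to 0.0249 and of Fosb with Jun from -0.49 to 0.23 in muscle, and of Jun with Atf3 from -0.61 to 0.0180 in brain.

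With 3 and 4 arrays a group, intervals are wide: a brain difference of Egr2 between -0.38 and 1.33 stays within its 95% interval. Fosb and Egr2 in muscle and Atf3 in brain are near the dim end of the arrays, where values carry little. Whole-brain arrays differed in regional markers, and the sources used here do not give handling or time of sampling.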
